A study of Mus musculus with 6 samples.

Results

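Genes for amino acid and peptide transporters were read in mouse bladder cells at postnatal day 7 that the labels call epithelial. Fibroblast markers were bright in the DsRed-negative arrays, where Col1a1, a fibrillar collagen, had 16.91, 16.99 and 16.82 on the log2 scale used here, so the label was not borne out for that group. The members were all genes whose symbol starts with Slc1a, Slc3a, Slc6a, Slc7a, Slc15a, Slc36a, Slc38a or Slc43a and that had a probe set annotated to them alone. This gave 68 genes with 133 probe sets, of 18193 genes with such a probe set. Of the 68, 3 are named as opposite strand transcripts (Slc36a1os, Slc6a19os and Slc7a6os) and were kept because the choice went by symbol. DsRed-positive cells were set against DsRed-negative cells, with 3 arrays in each group, numbered 1, 2 and 5 in both. All 6 samples were labelled as male mice of a cross of FVB/N with C57BL/6, untreated, not pooled, with B6;129P-Upk1btm1Zhang/J given as the reported gene, so both groups came from animals with that allele. The labels do not say how DsRed was driven beyond this name, or how the cells were parted. Separate animals are not stated, and each p-value therefore covers only how far these samples spread, which may be technical. Urothelial markers, given further on, were bright in the DsRed-positive arrays.

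Amino acids cross membranes through carriers that differ in substrate and driving ion. The Slc1, Slc6 and Slc38 families couple uptake to sodium and concentrate amino acids in the cell. Light chains of the Slc7 family pair with a heavy chain, Slc3a1 or Slc3a2, and exchange 1 amino acid for another, while the cationic carriers of the same family work without a heavy chain. Slc15 carriers move small peptides and histidine with protons, Slc36 carriers move small amino acids with protons, and Slc43 holds facilitated carriers. Uptake feeds protein synthesis, glutathione synthesis and the sensing of amino acids by mTORC1.

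Signals are given as log2 of the deposited signal plus an offset, quantile normalized, and changes are DsRed-positive minus DsRed-negative on that scale. Upk1b, the uroplakin named in the labels, was 16.48, 16.70 and 16.67 in DsRed-positive arrays 1, 2 and 5, against 13.27, 12.25 and 11.53 in DsRed-negative arrays 1, 2 and 5. The control level of an array, the 95th percentile of 27 control probe sets without added target, lay between 7.41 and 7.56 in the DsRed-positive arrays and between 7.69 and 8.03 in the DsRed-negative arrays. Both arrays numbered 1 went against the label male. Xist, a transcript of female cells, had a deposited signal of 28183 in DsRed-positive array 1 and 45699 in DsRed-negative array 1, and 203 to 546 in the other 4 arrays. Eif2s3y, a gene of the Y chromosome, had 31.2 and 3.83 in the 2 arrays numbered 1 and 3309 to 8043 in the other 4. Results are therefore also given without both arrays numbered 1.

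Most transporter genes did not separate the groups. Of the 68 members, 48 were bright enough to be tested. Of these, 1 was higher and 6 were lower in DsRed-positive cells, and 41 did not pass (limma, p-values adjusted by Benjamini-Hochberg across the whole array, threshold 0.05). The 7 called members were 14.6% of those tested, and 20.5% of all tested genes were called. In percent, 2.08% of the tested members were higher and 12.5% lower. Over all 14222 tested genes, 9.21% were higher and 11.3% lower, so the share of lower members was near that of genes in general and the share of higher members below it. The difference between these shares was not tested. At an unadjusted p under 0.05 there were 10 members, against 35.2% of all genes (5000). The median log2 change was -0.14 over the 48 members and 0.04 over all tested genes. For 33 of the 48 the change was smaller than 1 on the log2 scale in either direction. Without both arrays numbered 1, no member was higher and 2 were lower. Without both arrays numbered 2 there were 0 higher and 5 lower, and without both numbered 5 there were 0 and 3. Leaving out 1 array at a time gave 0 or 1 higher and 4 to 6 lower. The single higher call was lost without DsRed-positive array 1, 2 or 5 or without DsRed-negative array 5, and without DsRed-negative array 1 the 1 higher member was Slc1a3 in place of Slc7a4.

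**Figure D1:**
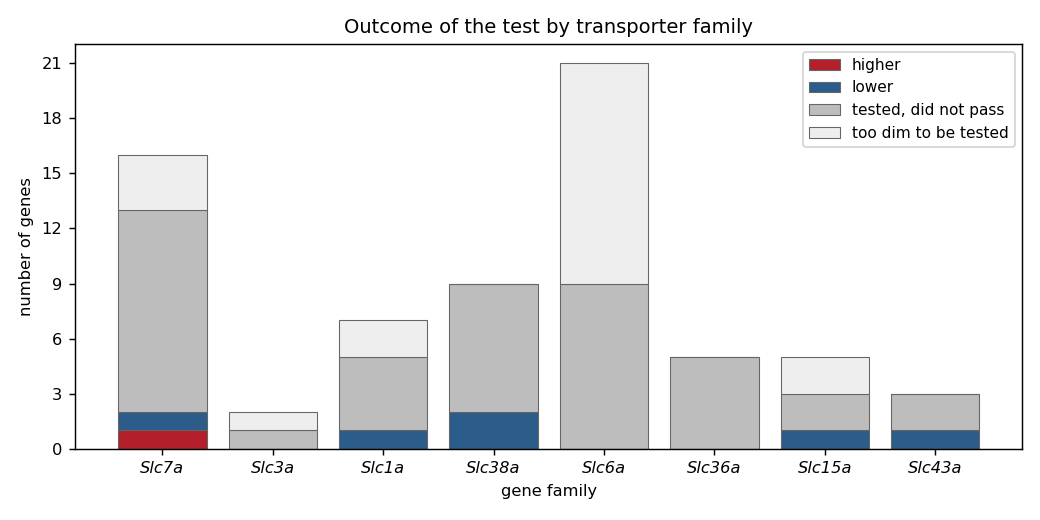
Number of genes in each of the 8 families, stacked by outcome: higher or lower in DsRed-positive cells, tested without passing, or too dim to be tested. The 21 Slc6a genes hold 12 of the 20 untested members and no called one, and the 7 called members are spread over Slc7a, Slc1a, Slc38a, Slc15a and Slc43a.

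**Figure D2:**
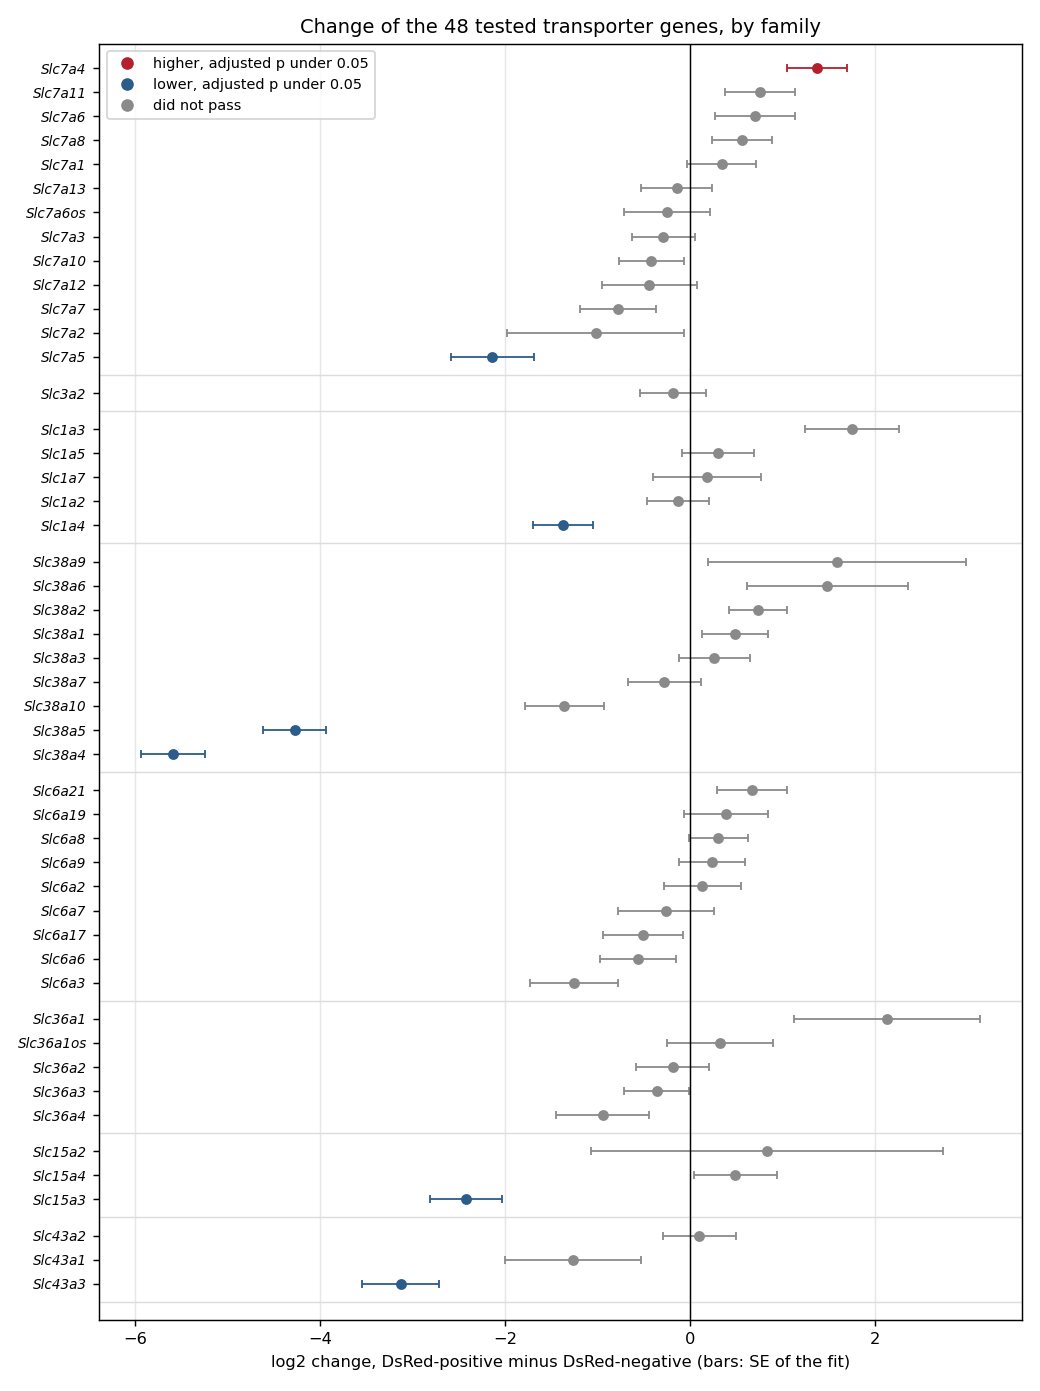
Log2 change, DsRed-positive minus DsRed-negative, of the 48 tested members by family, with bars for the standard error of the fit. Blue points are the 6 lower members, the red point is Slc7a4, and grey points did not pass; the changes run from -5.59 (Slc38a4) to 2.13 (Slc36a1).

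The sodium-coupled neutral amino acid transporters of the Slc38 family held the largest changes. All 9 Slc38 members were tested, 2 were lower and 7 did not pass. Slc38a4, an imprinted system A carrier, had 6.61, 7.01 and 7.23 in DsRed-positive arrays 1, 2 and 5, against 12.82, 12.40 and 12.42 in DsRed-negative arrays 1, 2 and 5. The groups lay far apart, and all 3 DsRed-positive values were below the control level of their array. The log2 change was -5.59 ± 0.34 (SE, adjusted p = 1.07e-04), and Slc38a4 was at least 33.1-fold lower when its DsRed-positive signal was set to the control level. Its second probe set fell too, by a log2 change of -3.61 ± 0.60 (adjusted p = 0.00608).

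Slc38a5, a system N carrier of glutamine, histidine and serine, had 5.84, 5.88 and 6.31 in DsRed-positive arrays 1, 2 and 5, against 10.20, 10.61 and 10.03 in DsRed-negative arrays 1, 2 and 5. Again every DsRed-positive value was below the control level. The log2 change was -4.27 ± 0.34 (adjusted p = 2.67e-04), a bound of at least 6.91-fold lower. Slc38a4 and Slc38a5 were called lower under each of the 20 alternatives run, with adjusted p up to 0.0133 and 0.0179.

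Slc38a1, Slc38a2 and Slc38a4 are consecutive protein-coding genes on chromosome 15 in the RefSeq annotation of GRCm38.p6. Slc38a2, a system A carrier that responds to amino acid supply, had 16.53, 16.52 and 16.30 in DsRed-positive arrays, and 15.65, 15.58 and 15.94 in DsRed-negative arrays. Its groups did not overlap, but the change of 0.73 ± 0.31 did not pass (adjusted p = 0.160). With trend and robust estimation it did (adjusted p = 0.00988), while with the values as deposited the change was 0.14 (adjusted p = 0.824) and the groups overlapped. The per-array difference of Slc38a4 and Slc38a2 changed by -6.32 between the groups, with the 3 DsRed-positive differences all below the 3 DsRed-negative ones (exact permutation test, two-sided p = 0.1, the smallest possible with 3 against 3; 3 such pairs of genes were compared, all chosen after their values were seen). Slc38a4 alone already lay far apart between the groups, so the test adds little to its call. Slc38a1, a glutamine carrier, depended on the probe set. The one that stands for the gene had a change of 0.49 ± 0.36 (adjusted p = 0.393). The other rose by 3.25 ± 0.75 (adjusted p = 0.0238), with 11.11, 11.36 and 11.39 in DsRed-positive arrays and 8.67, 9.25 and 6.18 in DsRed-negative arrays.

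Slc38a10 lay well above the control level in all arrays, with 13.29, 14.41 and 14.57 in DsRed-positive arrays and 15.34, 15.31 and 15.70 in DsRed-negative arrays. The groups did not overlap. Its change of -1.36 ± 0.43 missed the threshold (adjusted p = 0.0685), and it passed with an offset at the 50th percentile (0.0297) and with trend and robust estimation (0.0169). These values are from the probe set that stands for the gene. The other tested probe sets of Slc38a10 had changes of -0.86, -0.61, -0.999, -0.33, 0.13 and 0.37, and none passed. Slc38a7, a glutamine carrier of the lysosome, and Slc38a3 had changes of -0.28 and 0.26 and did not pass. Slc38a9, the lysosomal arginine sensor of mTORC1, and Slc38a6 are given below with the members of wide spread.

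Among Slc7 light chains and their heavy chain, Slc7a5 was lower while Slc3a2 did not pass. Slc7a5 (LAT1) exchanges large neutral amino acids, leucine among them, when joined to Slc3a2. It had 9.23, 10.45 and 10.23 in DsRed-positive arrays 1, 2 and 5, against 11.86, 11.84 and 12.63 in DsRed-negative arrays 1, 2 and 5. The groups did not overlap, and all 6 values were above the control level. The log2 change was -2.14 ± 0.45 (adjusted p = 0.0159), or 4.40-fold lower. The call was lost without DsRed-positive array 1, whose value was the lowest (-1.77, adjusted p = 0.0593), without both arrays numbered 1 (0.0966) and without both numbered 5 (0.0975).

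Slc3a2 (4F2hc) had 13.44, 13.78 and 13.03 in DsRed-positive arrays and 13.29, 13.64 and 13.88 in DsRed-negative arrays. The groups overlapped, and the change of -0.19 ± 0.36 had a 95% interval from -1.02 to 0.65. The per-array difference of Slc7a5 and Slc3a2 came to -4.21, -3.33 and -2.80 in DsRed-positive arrays and -1.43, -1.80 and -1.25 in DsRed-negative arrays. It thus differed by -1.95 between the groups (exact permutation test, two-sided p = 0.1, the smallest possible). The pair was chosen after its values were seen. Slc7a5 alone already lay apart between the groups, so this test adds little to its call. The other heavy chain, Slc3a1, was at or below the control level in all 6 arrays and was not tested.

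The other tested light chains did not pass. Slc7a8 (LAT2) had 9.34, 9.11 and 8.84 in DsRed-positive arrays and 8.54, 8.42 and 8.65 in DsRed-negative arrays, with a change of 0.56 ± 0.32 (adjusted p = 0.277). These groups lay apart after normalization but overlapped in the deposited signal, where the change was 0.14. Slc7a6 and Slc7a7, both exchangers of cationic against neutral amino acids, had changes of 0.70 ± 0.43 and -0.78 ± 0.41. Slc7a11 (xCT) imports cystine for glutathione in exchange for glutamate. It had 9.29, 8.23 and 8.88 in DsRed-positive arrays and 7.98, 8.24 and 7.93 in DsRed-negative arrays, and the overlap came from array 2 of both groups. Its change of 0.75 ± 0.38 had a 95% interval from -0.13 to 1.63 (adjusted p = 0.220). An untested probe set of Slc7a11 had 7.77, 7.44 and 7.30 in DsRed-positive arrays and 5.54, 7.13 and 5.67 in DsRed-negative arrays. Its groups did not overlap, but it was above the control level in DsRed-positive array 1 alone. Slc7a10, Slc7a12 and Slc7a13 had changes from -0.44 to -0.15 with signals near the control level.

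Slc7a4 was the one member that was higher. It resembles the cationic amino acid transporters in sequence, but transport by it alone has not been settled. It had 10.67, 10.48 and 10.998 in DsRed-positive arrays 1, 2 and 5, against 9.39, 9.52 and 9.13 in DsRed-negative arrays 1, 2 and 5. The groups did not overlap, and the change was 1.37 ± 0.33 (adjusted p = 0.0273), or 2.59-fold higher. A second probe set rose by 1.92 ± 0.38 (adjusted p = 0.0120). The call of the first held among single omissions only when DsRed-negative array 2 was left out. Without DsRed-negative array 1 its adjusted p was 0.0521, and without DsRed-positive array 5 it was 0.10, the range of the other omissions.

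The cationic carrier Slc7a1 (CAT1), the main route of arginine and lysine into many cells, had 14.48, 15.07 and 14.49 in DsRed-positive arrays and 14.42, 14.72 and 13.89 in DsRed-negative arrays. Its change of 0.34 ± 0.37 did not pass (adjusted p = 0.581), and the groups overlapped. Slc7a3 had a change of -0.29 and the opposite strand transcript Slc7a6os one of -0.25. The second tested probe set of Slc7a6os went the other way, at 1.32 ± 0.54, with groups that did not overlap, and did not pass (adjusted p = 0.141). Slc7a9, Slc7a14 and Slc7a15 were not tested.

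**Figure D3:**
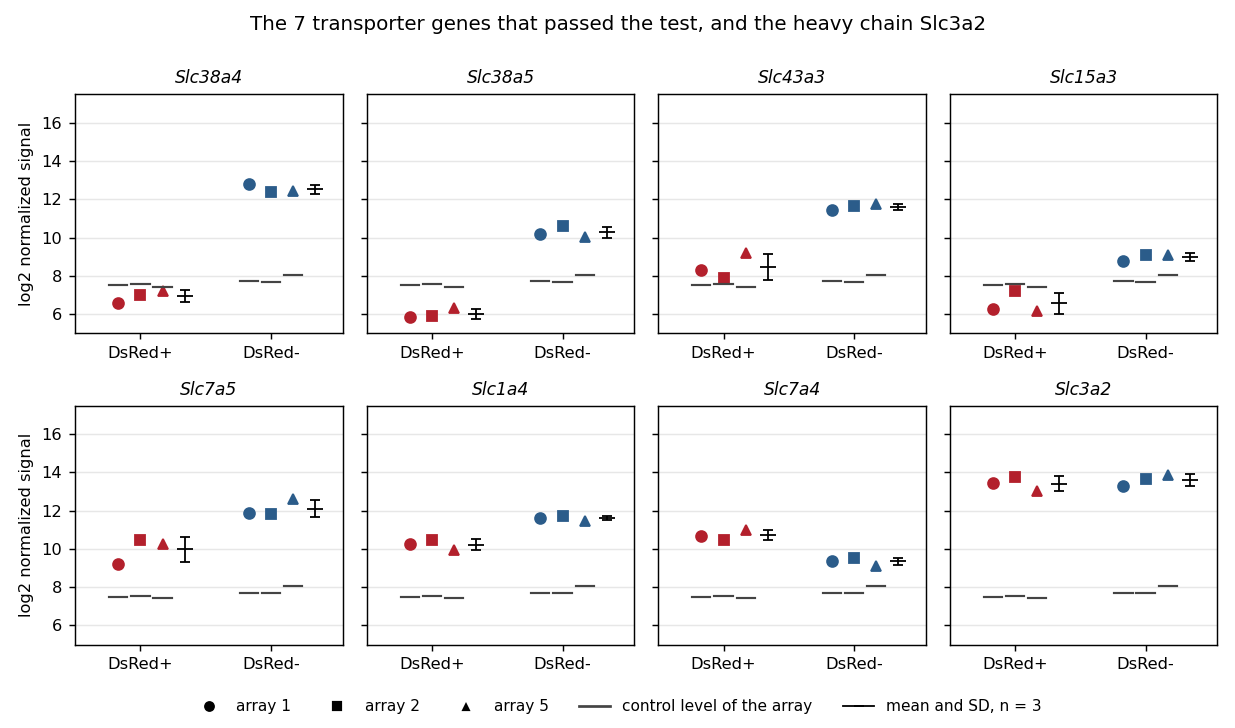
Log2 normalized signal of the 7 called members and of Slc3a2 in each array, DsRed-positive left of DsRed-negative, with symbols for the array number, short lines for the control level of that array, and the mean with SD over 3 arrays. Slc38a4, Slc38a5 and Slc15a3 lie below the control level in all 3 DsRed-positive arrays, and Slc3a2 overlaps between the groups.

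In the Slc1 family, which holds glutamate carriers and the neutral exchangers ASCT1 and ASCT2, 1 of 5 tested members was lower. Slc1a4 (ASCT1), which carries alanine, serine and cysteine, had 10.27, 10.49 and 9.92 in DsRed-positive arrays 1, 2 and 5, against 11.61, 11.71 and 11.48 in DsRed-negative arrays 1, 2 and 5. The groups did not overlap, and the change was -1.38 ± 0.33 (adjusted p = 0.0261), or 2.60-fold lower. The call did not hold with each array centred on its median (-0.83, adjusted p = 0.127) or in 5 of the 6 fits without 1 array (0.0514 to 0.0970). It was kept without DsRed-negative array 5. Its probe sets also differed, with -2.07 ± 0.63 (adjusted p = 0.0607) and 0.14 ± 0.75 for the other 2.

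Slc1a5 (ASCT2), a glutamine carrier, had 10.79, 10.07 and 9.93 in DsRed-positive arrays and 10.36, 9.62 and 9.91 in DsRed-negative arrays. The groups overlapped, with a change of 0.30 ± 0.39 (adjusted p = 0.644). The per-array difference of Slc1a4 and Slc1a5 changed by -1.68 between the groups (exact permutation test, two-sided p = 0.1, the smallest possible). This pair too was chosen after its values were seen. Slc1a4 alone already lay apart between the groups, so the test adds little to its call. Slc1a3 (GLAST), a glutamate carrier, had 8.09, 9.14 and 8.07 in DsRed-positive arrays, all above the control level, and 7.42, 5.92 and 6.71 in DsRed-negative arrays, all below it. Its change of 1.75 ± 0.50 missed the threshold (adjusted p = 0.0523). Over the 19 alternatives that tested it, its adjusted p ranged from 0.0362, without DsRed-negative array 1, to 0.229. This was the 1 tested probe set of 6. Among the untested ones, 1 went the same way, with 7.99, 8.33 and 7.13 in DsRed-positive arrays and 6.99, 5.77 and 6.29 in DsRed-negative arrays. It was above the control level in DsRed-positive arrays 1 and 2 alone. Another was below the control level in all DsRed-positive arrays (6.08, 6.21 and 6.01) and above it in DsRed-negative arrays 2 and 5 (7.89 and 8.18). The rest overlapped between the groups. The glutamate carriers Slc1a2 and Slc1a7 had changes of -0.13 and 0.18, and Slc1a1 and Slc1a6 were not tested.

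Promoter sequence was at hand for 50 of the 68 members, with 71 starts in all, from RefSeq on GRCm38.p6. It is shown for the called members that have an entry, Slc38a4, Slc38a5 and Slc1a4, and for Slc7a11, which holds more than 1 match to the motif searched. Each sequence runs from 250 bases before the start to 10 bases after it, in the direction of the gene, and capitals mark matches to TGATGNAA on either strand, the core of the C/EBP-ATF response element that ATF4 binds when amino acids are scarce. The windows lie at chr15:97055947-97056206 (minus strand, the most upstream of 3 starts), chrX:8271131-8271390 (plus strand), chr11:20332704-20332963 (minus strand) and chr3:50443604-50443863 (minus strand).
Slc38a4: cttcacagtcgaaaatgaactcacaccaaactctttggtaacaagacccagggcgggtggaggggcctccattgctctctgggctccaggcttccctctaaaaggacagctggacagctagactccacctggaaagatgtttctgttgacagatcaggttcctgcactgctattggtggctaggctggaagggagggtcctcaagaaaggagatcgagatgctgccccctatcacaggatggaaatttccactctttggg
Slc38a5: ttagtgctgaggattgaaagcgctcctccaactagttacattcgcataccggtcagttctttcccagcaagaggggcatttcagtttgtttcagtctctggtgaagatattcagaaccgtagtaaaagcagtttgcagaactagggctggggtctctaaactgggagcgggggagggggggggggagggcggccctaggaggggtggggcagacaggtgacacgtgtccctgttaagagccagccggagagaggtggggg
Slc1a4: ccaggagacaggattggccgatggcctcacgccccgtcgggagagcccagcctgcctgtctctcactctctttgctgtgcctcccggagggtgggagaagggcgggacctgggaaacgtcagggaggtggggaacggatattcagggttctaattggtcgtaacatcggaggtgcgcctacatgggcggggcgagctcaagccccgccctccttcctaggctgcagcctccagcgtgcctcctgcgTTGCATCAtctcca
Slc7a11: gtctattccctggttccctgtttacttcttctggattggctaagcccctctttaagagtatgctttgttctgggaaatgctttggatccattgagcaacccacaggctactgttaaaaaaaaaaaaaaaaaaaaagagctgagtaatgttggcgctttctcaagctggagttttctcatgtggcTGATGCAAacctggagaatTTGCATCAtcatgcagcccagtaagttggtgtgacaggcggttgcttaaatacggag
The Slc1a4 match is on the reverse strand and begins 4 bases before the start. Slc7a11 has a forward match that begins 66 bases before the start and a reverse match that begins 47 bases before it. Over the full windows of 300 bases, 6 of the 71 member starts (8.45%) held a match, in Slc15a5, Slc1a4, Slc6a21, Slc7a11 and Slc7a7, and 3.97% of all 32851 starts did. The grainyhead-like motif AACCGGTT was found in 0 of the 71 and in 0.146% of all starts. Of the 5 genes with a TGATGNAA match, Slc1a4 alone was called, and Slc15a5 was not tested. A match is a description of letters and not a site of binding.

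None of the 9 tested members of the Slc6 family passed. At an unadjusted p under 0.05 there was 1, Slc6a3. This family carries neurotransmitters, glycine, proline, taurine and creatine with sodium and chloride. Slc6a6, the taurine carrier, had 11.57, 12.31 and 11.17 in DsRed-positive arrays and 12.16, 12.63 and 11.96 in DsRed-negative arrays, with a change of -0.57 ± 0.41 (adjusted p = 0.390). Its second tested probe set went the other way, at 1.30 ± 0.40 (adjusted p = 0.0637), with 10.50, 10.52 and 9.42 in DsRed-positive arrays and 8.82, 8.89 and 8.83 in DsRed-negative arrays. The direction of Slc6a6 therefore rests on the probe set.

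Slc6a8, the creatine carrier, had 13.06, 13.38 and 13.55 in DsRed-positive arrays and 12.94, 13.04 and 13.09 in DsRed-negative arrays. Its change of 0.30 ± 0.32 did not pass (adjusted p = 0.558). Slc6a9, a glycine carrier, had a change of 0.24 ± 0.36. Slc6a3, the dopamine carrier, had 7.81, 7.82 and 7.42 in DsRed-positive arrays and 8.37, 9.91 and 8.53 in DsRed-negative arrays. Its groups did not overlap, and its change of -1.25 ± 0.47 (adjusted p = 0.115) passed with the values as deposited (-1.71, 0.0364). The remaining tested members were the noradrenaline carrier Slc6a2 (0.13), the proline carrier Slc6a7 (-0.26), Slc6a17 (-0.51), the neutral amino acid carrier Slc6a19 (0.39) and Slc6a21 (0.67). The other 12 members of the family, Slc6a4, Slc6a5, Slc6a11, Slc6a12, Slc6a13, Slc6a14, Slc6a15, Slc6a16, Slc6a18, Slc6a19os, Slc6a20a and Slc6a20b, were too dim to be tested, and 6 members of the family were at or below the control level in all 6 arrays.

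In the peptide carriers of the Slc15 family, 1 of 3 tested members was lower. Slc15a3, a lysosomal peptide and histidine carrier known from macrophages and dendritic cells, had 6.29, 7.20 and 6.19 in DsRed-positive arrays 1, 2 and 5, against 8.76, 9.10 and 9.10 in DsRed-negative arrays 1, 2 and 5. All DsRed-positive values were below the control level and all DsRed-negative values above it. The change was -2.43 ± 0.39 (adjusted p = 0.00507), a bound of at least 2.82-fold lower. The call was kept without any 1 array and was lost without both arrays numbered 1 (0.0687) and without both numbered 5 (0.0653). Slc15a4, a related lysosomal carrier, had a change of 0.49 ± 0.44. Slc15a1 and Slc15a5 were not tested.

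Slc15a2 (PEPT2), the high-affinity peptide carrier of kidney and other epithelia, was read differently by its 3 tested probe sets. The one with the highest mean had 12.51, 7.22 and 12.27 in DsRed-positive arrays, and 12.27, 6.04 and 11.19 in DsRed-negative arrays. Array 2 of both groups was below the control level, and the change of 0.83 ± 1.90 did not pass (adjusted p = 0.805). A second probe set had 10.36, 9.15 and 10.38 in DsRed-positive arrays and 9.0, 6.46 and 6.51 in DsRed-negative arrays, a change of 2.64 ± 0.74 (adjusted p = 0.0481). The third had 10.61, 9.39 and 11.51 in DsRed-positive arrays and 9.03, 6.04 and 6.41 in DsRed-negative arrays, a change of 3.34 ± 0.87 (adjusted p = 0.0372). In these 2 probe sets the groups did not overlap, and the DsRed-negative value was highest in array 1.

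The Slc43 family holds facilitated carriers of large neutral amino acids, and Slc43a3 is known as a carrier of purine nucleobases and not of amino acids. Slc43a3 had 8.31, 7.91 and 9.22 in DsRed-positive arrays 1, 2 and 5, against 11.44, 11.64 and 11.75 in DsRed-negative arrays 1, 2 and 5. The groups did not overlap and the change was -3.13 ± 0.42 (adjusted p = 0.00222), or 8.75-fold lower. It was called in each fit without 1 array and missed the threshold without both arrays numbered 1 (0.0505). Slc43a1 (LAT3) had a change of -1.27 ± 0.73 and overlapping groups, and leaving out 1 array moved it between -2.07 (adjusted p = 0.0360, without DsRed-negative array 2) and -0.66 (0.561, without DsRed-negative array 1). Slc43a2 (LAT4) had a change of 0.10 ± 0.40 on the probe set that stands for it and rose by 1.36 ± 0.38 on another (adjusted p = 0.0470).

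The proton-coupled Slc36 family had 5 tested members and no call, and 0 of them had an unadjusted p under 0.05. Slc36a4, a high-affinity carrier of proline and tryptophan, had a change of -0.95 ± 0.50 (adjusted p = 0.240). Slc36a2 and Slc36a3 had -0.19 and -0.36, and the transcript Slc36a1os had 0.32.

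By probe set, 78 of the 133 were tested, 6 were higher and 7 lower. Over all 30175 tested probe sets, 8.63% were higher and 8.62% lower. The 6 higher ones belonged to 4 genes, Slc7a4, Slc15a2, Slc38a1 and Slc43a2, and the last 3 of these were not called on the probe set with the highest mean. No gene of the 18 with several tested probe sets had calls in both directions.

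**Figure D4:**
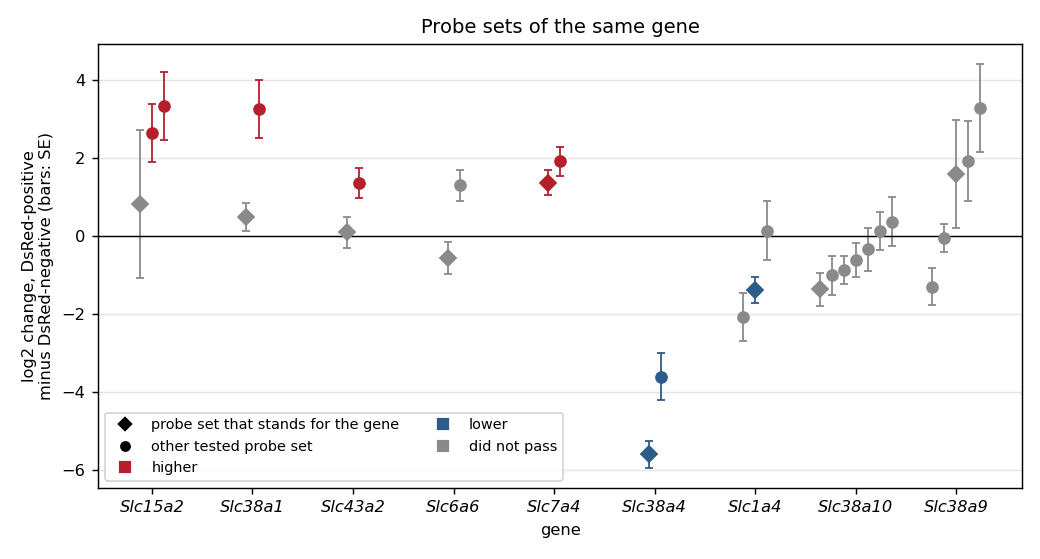
Log2 change, DsRed-positive minus DsRed-negative, of each tested probe set of 9 members, with bars for the standard error; diamonds mark the probe set that stands for the gene. Slc15a2, Slc38a1 and Slc43a2 have a called higher probe set (3.34, 3.25 and 1.36) beside an uncalled one, and the 2 Slc6a6 probe sets lie on either side of 0.

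In 5 tested members the arrays of at least 1 group spanned over 3 log2 units, and none of these passed. Slc36a1, the lysosomal proton-coupled carrier, had 11.12, 10.71 and 11.11 in DsRed-positive arrays and 10.01, 6.22 and 10.33 in DsRed-negative arrays. Slc38a9 had 10.99, 11.17 and 11.57 in DsRed-positive arrays and 11.68, 11.36 and 5.92 in DsRed-negative arrays on the probe set that stands for it. Its other tested probe sets had changes of 3.28 ± 1.13, 1.93 ± 1.03, -0.05 ± 0.35 and -1.29 ± 0.47, and none passed. The one with 3.28 was low in DsRed-negative arrays 2 and 5 (6.70 and 5.49). The one with -0.05 had 10.22 in DsRed-negative array 5, so the result for Slc38a9 rests on the probe set. Slc38a6 had 11.35, 12.25 and 12.09 in DsRed-positive arrays and 11.53, 8.23 and 11.48 in DsRed-negative arrays. On the probe sets that stand for these 3, the wide spread came from 1 DsRed-negative array each. It was array 2 for Slc36a1 and Slc38a6 and array 5 for Slc38a9. In Slc36a1 the groups still did not overlap. Their changes were 2.13 ± 1.01, 1.59 ± 1.40 and 1.48 ± 0.87 for Slc36a1, Slc38a9 and Slc38a6. Without that 1 array they were 0.81, -0.27 and 0.39, and with any other single array left out they reached up to 2.87, 2.60 and 2.04. Slc7a2 (CAT2), an inducible arginine carrier, had 7.90, 6.72 and 6.01 in DsRed-positive arrays and 9.82, 5.94 and 7.93 in DsRed-negative arrays. This was its 1 tested probe set. An untested one had 6.68, 5.76 and 5.74 in DsRed-positive arrays, all below the control level. It had 7.85, 7.91 and 8.12 in DsRed-negative arrays, all above that level. The other untested probe sets of Slc7a2 overlapped between the groups. Slc15a2 was the fifth member of wide spread, which it had in both groups. The hybridization controls had a mean log2 deposited signal of 12.99, 14.32 and 14.47 in DsRed-positive arrays 1, 2 and 5, against 14.52, 16.49 and 15.76 in DsRed-negative arrays 1, 2 and 5. They were brightest in DsRed-negative arrays 2 and 5, where the low values of Slc36a1, Slc38a6 and Slc38a9 lie, and Slc15a2 was low in DsRed-positive array 2 as well. Their part in these values was not tested.

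**Figure D5:**
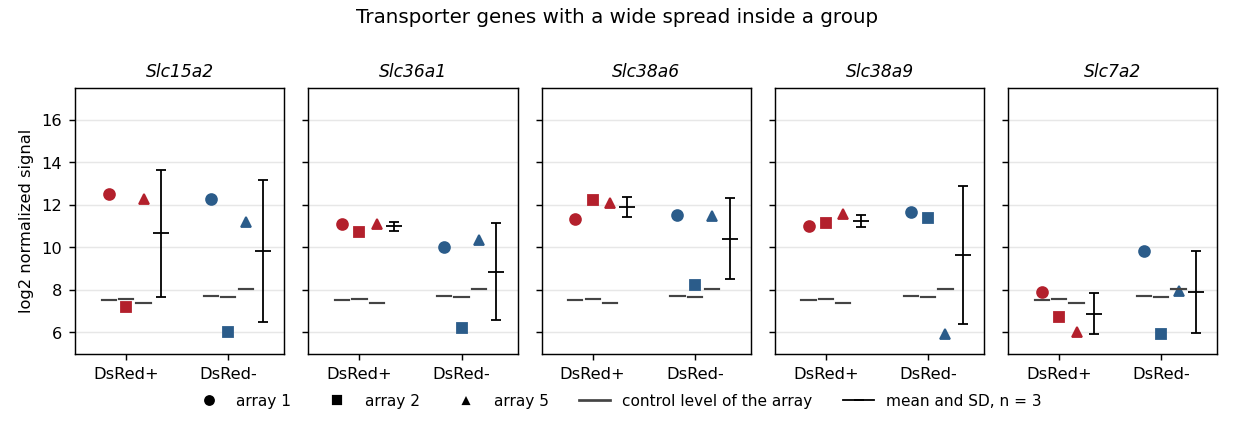
Log2 normalized signal of the 5 tested members with a range over 3 log2 units in a group, by array, DsRed-positive left of DsRed-negative, with the control level of each array and the mean with SD over 3 arrays. In Slc36a1, Slc38a6 and Slc38a9 a single DsRed-negative array sits far below the other 2.

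Detection differed among the members. Of the 68 members, 27 were above the control level in all 6 arrays and 10 in none. Another 3, Slc38a4, Slc38a5 and Slc15a3, were above it in all DsRed-negative and no DsRed-positive arrays, as was an untested probe set of Slc7a2. On its tested probe set Slc1a3 was above the control level in all DsRed-positive and no DsRed-negative arrays, which none of its dimmer probe sets showed in full. The members above it in all arrays included Slc3a2, Slc7a1, Slc7a5, Slc7a6, Slc1a4, Slc1a5, Slc38a1, Slc38a2, Slc38a10, Slc6a6 and Slc6a8.
In the 48 tested members, the groups lay apart without overlap after normalization for 7 that were higher and 8 that were lower. Over all 14222 tested genes, the groups lay apart on the same scale for 22.0% higher and 21.4% lower. In the deposited signal, 3 of the 7 and 8 of the 8 members stayed apart, and Slc38a1, Slc38a2, Slc6a21 and Slc7a8 overlapped. No share over all genes was taken in the deposited signal.

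Markers of stromal, vascular and blood cells moved with the 6 lower members. The summed deposited signal of 9 fibroblast markers ranged from 15569 to 29337 in DsRed-positive arrays and from 772126 to 1727427 in DsRed-negative arrays, and all 9 were called lower. For 7 leukocyte markers the sum ranged from 2138 to 4006 in DsRed-positive arrays and from 32691 to 45461 in DsRed-negative arrays, with 6 of 7 lower. For 7 endothelial markers it ranged from 1087 to 1297 in DsRed-positive arrays and from 8685 to 13063 in DsRed-negative arrays, with 4 of 5 tested lower. Of 6 tested smooth muscle markers 5 were lower, with sums from 2061 to 2894 in DsRed-positive arrays and from 108676 to 198754 in DsRed-negative arrays. Mast cell markers summed to 391 to 576 in DsRed-positive arrays and 19533 to 28658 in DsRed-negative arrays, with 2 of 4 tested lower, and Cpa3 was below the control level in all DsRed-positive arrays, as were Tie1 of endothelium, Cnn1 of smooth muscle and Hba-a1 and Alas2 of erythroid cells. Both tested erythroid markers were lower, with sums from 144 to 199 in DsRed-positive arrays and from 1405 to 3598 in DsRed-negative arrays. Nerve and Schwann cell markers overlapped, with sums from 3180 to 4034 in DsRed-positive arrays and from 2198 to 3320 in DsRed-negative arrays, 1 of 5 tested higher and none lower. All 12 tested urothelial markers were higher, with sums from 264583 to 385738 in DsRed-positive arrays and from 16984 to 36372 in DsRed-negative arrays. Apart from nerve (exact permutation p = 0.3), each of these sums gave the smallest possible p of 0.1. Fewer cells of a type and less RNA per cell cannot be told apart in these samples, and the part of other cells in the lower members was not tested.

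Genes that work with the transporters were read from 4 lists of 88 genes, of which 73 were tested, and 3 were higher (4.11%) and 11 lower (15.1%), against 9.21% and 11.3% of all tested genes. These shares were not compared by a test. Without both arrays numbered 1, 5 of the 73 were lower. Among 13 tested carriers of amino acids outside these families, 1 was lower and 12 did not pass, with a median of -0.33. Slc16a10 (TAT1), a facilitated carrier of aromatic amino acids, had 8.41, 7.96 and 8.15 in DsRed-positive arrays and 12.55, 11.45 and 10.68 in DsRed-negative arrays. It was lower by a log2 change of -3.38 ± 0.50 (adjusted p = 0.00370). The mitochondrial carriers Slc25a38, for glycine, and Slc25a29, for basic amino acids, had -0.86 ± 0.31 and -0.80 ± 0.33 and did not pass.

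Genes of the amino acid response and of serine and cysteine synthesis changed in 6 of 21 cases, 1 higher and 5 lower, with a median of 0.05. That is 28.6% of the list, against 20.5% of all tested genes. Ddit4, an inhibitor of mTORC1, had a change of -2.54 ± 0.31 (adjusted p = 0.00160), Cebpb, a C/EBP factor, -2.34 ± 0.34, and Nupr1, a stress-induced nuclear protein, -3.27 ± 0.56. Mthfd2, of mitochondrial folate metabolism, was lower by -2.32 ± 0.40. Without both arrays numbered 1 the calls of Cebpb (0.0578) and Mthfd2 (0.0545) were lost, and without both numbered 5 those of Mthfd2 and Nupr1. Mthfd2 was also lost with the mean of its probe sets. Cth, which makes cysteine from cystathionine, rose by 3.61 ± 0.86 (adjusted p = 0.0271), a call lost without DsRed-positive array 1 or 5 or DsRed-negative array 2 or 5 (up to 0.102) and kept in 13 of the 20 alternatives. Ddit3 (CHOP), a stress factor, was lower by -1.41 ± 0.35 (adjusted p = 0.0302), a call kept in 10 of the 20 alternatives. It was lost with centring, in each omission of 1 array but that of DsRed-negative array 1, and without both arrays of any number (0.103 for number 1). Asns, the asparagine synthetase that ATF4 induces, had a change of 1.07 ± 0.37 and did not pass (0.0892).

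Of 23 tested genes of amino acid sensing by mTORC1, 1 was lower and 22 did not pass. Rragd, a Rag GTPase, had 9.05, 8.36 and 6.41 in DsRed-positive arrays and 10.40, 10.91 and 11.47 in DsRed-negative arrays. Its change of -2.99 ± 0.69 (adjusted p = 0.0233) was lost without DsRed-positive array 2 or DsRed-negative array 5 (up to 0.0651), with an offset of 1, and without both arrays of any number (0.0610 for number 1). The sestrins Sesn3 and Sesn1 did not pass either, with 1.60 ± 0.46 and -1.36 ± 0.47 (adjusted p = 0.0521 and 0.0893).

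In glutamate, glutathione and peptide turnover, 2 of 16 tested genes were higher and 4 lower, with a median of 0.64, together 37.5% of the list, against the same 20.5%. Both subunits of glutamate-cysteine ligase, the first enzyme of glutathione synthesis, rose with all 6 arrays. The modifier Gclm had 11.56, 11.80 and 11.60 in DsRed-positive arrays and 9.09, 8.86 and 9.10 in DsRed-negative arrays, a change of 2.63 ± 0.31 (adjusted p = 0.00127). The catalytic Gclc had 13.13, 13.27 and 13.13 in DsRed-positive arrays and 11.33, 11.75 and 11.02 in DsRed-negative arrays, a change of 1.81 ± 0.34 (adjusted p = 0.00988), and its call was lost without both arrays numbered 1 (0.0994) and without both numbered 5. The cystine carrier Slc7a11 beside them did not pass, as given above. Dpep1, a dipeptidase that also cleaves glutathione products, was at least 61.2-fold lower, by the same bound, and Bcat1, the cytosolic branched-chain aminotransferase, at least 128-fold lower. The glutamine synthetase Glul and the transferase Ggt5 were lower by -1.76 ± 0.33 and -1.80 ± 0.41. The Glul call was lost without DsRed-positive array 1 (0.0550), and the Ggt5 call was lost in 4 of the 6 fits without 1 array (up to 0.0820). Both were lost without both arrays of any number (0.0814 for Glul and 0.148 for Ggt5 for number 1). Gclm, Dpep1, Bcat1, Ddit4 and Slc16a10 were called under all 20 alternatives.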

How the data were processed

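RNA amplified in 2 rounds was read on Affymetrix whole-genome mouse arrays, per the labels. The authors deposited linear probe set intensity. GCOS is named in the submitters' processing notes, without settings. Each array had the same 2% trimmed mean, 1500.01. An offset of 39.84 (20th percentile) was added before log2, and values were quantile normalized because array medians spanned 0.74. The 64 control probe sets were left out, and the 30175 probe sets whose mean passed the 33rd percentile (7.18) were tested with limma 3.58.1 in R 4.3.3 (two-sided, Benjamini-Hochberg). The fit alone was also run on simulated normal values. That run left out the offset, the normalization, the filter and the choice of probe set, so it does not check them. The offset and the normalization compress changes of dim genes. Symbols came from the platform annotation, updated through gene IDs (34741 probe sets; 204 as given; 932 with several genes and 9160 with none were not named). Each gene was read from the brightest probe set annotated to it alone. The number of arrays limits the precision.

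Groups followed the sample titles. Members and lists were chosen with earlier results of these data known. Per-array values are given for every called member and for Slc7a11, Slc3a2, Slc1a5, Slc38a2, Slc6a6 and Slc15a2; the 3 genes with the smallest p were named from each related list, and others were named after their values were seen. Single values were compared by exact permutation in scipy 1.17.1. Alternatives were other scalings, offsets, filters, variance models, probe set rules, a block by number, and leaving out arrays singly or by number. The labels do not say that the numbers pair samples, and the main fit left them out. Same-numbered arrays had deviations from the group means correlated at 0.145, 0.037 and 0.053, each the highest for its array. Both arrays numbered 1, and no others, had bright Xist and dim Eif2s3y. Whether same-numbered arrays came from the same animal was not tested.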

Additional observations from a re-analysis of the deposited data

How the results depend on the processing

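Of 20 alternatives, the count of lower members kept within 1.5 times of 6 in 18, and gave 2 without both arrays numbered 1 and 3 without both numbered 5. The count of higher members was 2 with each array centred on its median, with an offset at the 50th percentile and with trend and robust estimation, 3 with the mean of a gene's probe sets, 0 with the replicate block and 0 without both arrays of any 1 number; leaving out 1 array gave 0 to 1 higher and 4 to 6 lower. Under the block 5 of the 7 calls remained, without Slc1a4 and Slc7a4 (adjusted p 0.0522 and 0.0662), and of the related genes Ddit3 and Rragd lost theirs; each array correlated best with the array of its own number, which is a hint from the data and not the design. Over all genes, 2568 were higher with centring, 623 to 1263 without 1 array, and 485, 681 and 523 without both arrays numbered 1, 2 and 5, where 758 (number 1) and 903 (number 5) were lower. Centring each array moved the median of all genes to 0.37, against 0.04 after quantile normalization. It moved the median of members to 0.23, which also became 0.12 with a filter at the 50th percentile, where Slc15a3 was not tested, and 0.14 without both arrays numbered 2. In the related lists the higher genes numbered 14 with centring, 6 with the offset at the 50th percentile, with trend and robust estimation and without suffixed probe sets, 5 with the mean of probe sets and 2 to 4 without 1 array, and the lower genes 5, 7 and 5 without both arrays numbered 1, 2 and 5, and 8 to 11 without 1 array. Signs turned, with no call, for Slc3a2 (0.45 with centring, 0.0060 without DsRed-positive array 5, 0.15 without both numbered 5), Slc6a6 (0.094 with centring, 0.37 with the mean of probe sets), Slc38a9 (-0.048 without suffixed probe sets, -0.27 without DsRed-negative array 5, -0.44 without both numbered 5), Slc43a2 (-0.21 without DsRed-positive array 5, -0.042 without DsRed-negative array 5, -0.35 without both numbered 5) and Slc15a2 (-0.094 without DsRed-positive array 1, -1.07 without DsRed-negative array 2). Without 1 array the highest values were 0.30 for Slc43a2, 2.60 for Slc38a9 and 2.55 for Slc15a2, and the lowest for Slc3a2 was -0.37. The counts for the related lists under these alternatives were added after seeing the data. The causes were not tested. Members near the control level have changes that this signal cannot resolve.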
